A study of Rattus norvegicus with 10 samples.

Results

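Aif1, Itgam, Csf1r and Cd68 are 4 genes by which microglia are commonly recognised in brain tissue, and all 4 were found among the 16643 genes measured in the hippocampus of rats bred for a high or a low locomotor response to novelty. They were chosen by name and identifier, with earlier results of these data known: Aif1 is ENSRNOG00000000853, Itgam ENSRNOG00000019728, Csf1r ENSRNOG00000018414 and Cd68 ENSRNOG00000037563. The question was whether they differ together between the lines, as a difference in microglial RNA as a whole would show, or one by one. The table holds identifiers only, and the pairing of these identifiers with symbols was taken from the list that chose them.

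Polyadenylated RNA of the whole hippocampus was sequenced from 10 adult male rats of generation F43, with 5 bred High Responder (bHR) and 5 bred Low Responder (bLR) animals. Both lines had vehicle injections (saline and water) once a day for 14 days under standard housing and were killed at postnatal day 92, 1 hour after they had been put on an elevated plus maze, an anxiogenic environment. They served as unstressed, undrugged controls in a larger experiment with antidepressants and variable stress. Each rat carries a social interaction score with no stated unit. It was 16.67 to 28.33 in bHR and 7.33 to 24 in bLR, where replicate 4 had 24 and the others at most 14.33. Libraries held 29106105 to 48663164 reads assigned to genes. The library of bLR replicate 5 stood apart, with an effective size of 0.933 times its reads (1.00 to 1.02 in the others) and 4.06% of its reads in a single gene (1.92 to 2.14% for the top gene of the others), so results are also given without it. The tissue label could not be checked against marker genes, because no other identifier was paired with a symbol here.

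Microglia are the resident macrophages of the brain. They depend for their survival on the CSF1 receptor, clear debris and synapses by phagocytosis, in part through complement receptors, and change their transcripts when activated. Blood-derived and border macrophages express these genes too, so they mark the family of cells rather than microglia alone. In tissue RNA, fewer microglia and less of these transcripts per microglial cell cannot be told apart.

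None of the 4 genes passed the test between lines, but 2 came near it. Itgam averaged 38.1% lower and Csf1r 11.0% lower in bHR than in bLR (geometric means). Aif1 averaged 10.7% lower, with overlapping lines. Cd68 did not follow them, with a mean difference in the other direction and an interval wide on both sides of 0. In the limma model over all genes the Benjamini-Hochberg adjusted p was 0.064 for Itgam, 0.066 for Csf1r, 0.34 for Aif1 and 0.82 for Cd68. Thus 0 of 4 were called at 0.05, where 230 of 16643 genes (1.38%) were, 128 of them lower in bHR (0.769%) and 102 higher (0.613%). At an adjusted p under 0.10, 2 of the 4 (Itgam and Csf1r) would be called, against 3.02% of all genes. At an unadjusted limma p under 0.05, 2 of the 4 were lower in bHR, against 8.11% of all genes. The mean difference was below 0 in 3 of the 4 and in 52.8% of all genes. The median difference was -0.17 log2 units over the 4 and -0.0072 over all genes.

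**Figure D1:**
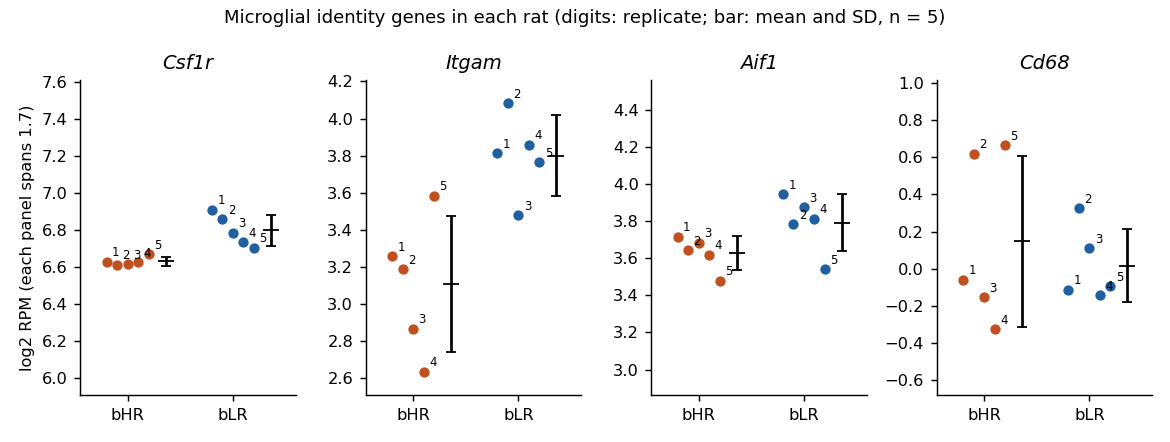
Level of each gene (vertical axis, log2 RPM, reads scaled to library size by the authors) in the 5 bHR and 5 bLR rats. Digits name the replicate, bars are the mean and SD, and all panels span the same range. Csf1r lies at 6.61 to 6.67 in bHR rats and at 6.71 to 6.91 in bLR rats, while the lines overlap in the other 3 genes.

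Csf1r encodes the receptor for the growth factors CSF1 and IL-34, on which microglia depend. Its level was 6.63, 6.61, 6.62, 6.63 and 6.67 log2 RPM in bHR replicates 1 to 5, and 6.91, 6.86, 6.79, 6.74 and 6.71 in bLR replicates 1 to 5. Every bLR rat lay above every bHR rat, although the gap between bHR replicate 5 and bLR replicate 5 was narrow. Lines were separated in this direction in 359 of 16643 genes (2.16%). In linear units the mean was 99.1 ± 1.57 RPM (SD, n = 5) in bHR and 112 ± 6.59 RPM in bLR. The difference was -0.17 on the log2 scale (SE 0.040, 95% interval -0.26 to -0.082), which placed Csf1r 296th of 16643 genes by p (limma, unadjusted p = 0.0012). The two-sided exact permutation test of this gene gave p = 0.0079, the smallest that 252 assignments of the rats allow.

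Csf1r was the most deeply counted of the 4 genes, with 2845 to 4867 reads per library. Counting error alone would give an SD of 0.023 log2 units in bHR and 0.024 in bLR. The observed SD was 0.023 in bHR and 0.085 in bLR, so the bHR rats differed from each other by no more than counting error, and the bLR rats by more. Whether Csf1r passed depended on which libraries were used and how they were weighted. Without bLR replicate 5, the library that stood apart and the lowest bLR rat for this gene, the difference was -0.19 and passed (limma adjusted p = 0.040, with 0.040 to 0.14 over the rats left out in turn). With library weights it also passed (limma adjusted p = 0.041). It passed under none of the other scalings (median shift, quantiles, total reads, TMM). With each library scaled to its total reads the difference was -0.14 (limma adjusted p = 0.26).

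Itgam encodes the alpha chain (CD11b) of complement receptor 3, with which microglia and other myeloid cells bind complement-tagged material and adhere. The bHR rats had 3.26, 3.19, 2.87, 2.64 and 3.58 log2 RPM in replicates 1 to 5, and the bLR rats 3.81, 4.08, 3.48, 3.86 and 3.76. In bHR, 4 rats lay below all bLR rats, and bHR replicate 5 lay above bLR replicate 3 alone. The means were 8.84 ± 2.23 RPM (SD, n = 5) in bHR and 14.0 ± 2.08 RPM in bLR. The log2 difference was -0.69 (SE 0.16, 95% interval -1.05 to -0.34), a 1.62-fold higher level in bLR, and ranked 293rd of 16643 genes by p (limma, unadjusted p = 0.0011). The exact permutation test gave p = 0.016. Differences at least as far below 0 were found in 204 of 16643 genes (1.23%).

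Itgam was covered by 284 to 710 reads per library. Its SD between rats was 0.37 log2 units in bHR and 0.22 in bLR, where counting error would give 0.079 and 0.068, so the rats of each line differed by more than counting error. Without bHR replicate 5, the rat with the highest level in its line, the difference was -0.81 (limma adjusted p = 0.027), and without any other single rat it ran from -0.77 to -0.58, with adjusted p from 0.063 to 0.14. Weighting by the precision of each value also brought it past the threshold (-0.74, limma with voom weights, adjusted p = 0.047). With the social interaction score in the model the difference was -0.71 (SE 0.22, limma adjusted p = 0.24). The score itself differed between the lines, so this fit cannot fully separate line from score.

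The sequences before the annotated start of Itgam, whose level differed most between the lines, and of Cd68, whose level did not follow it, are shown with the letters GAGGAA or, for the other strand, TTCCTC in capitals. These letters are the core that the myeloid transcription factor encoded by Spi1, a regulator of many macrophage genes, is known to bind. They are RefSeq sequences of the GRCr8 build, another build than the one used for counting (Rnor_6.0), given 5′ to 3′ on the strand of the gene. Itgam lies on the plus strand, with the stretch at chr1:192089342-192089495, and Cd68 on the minus strand, at chr10:54882442-54882691.
Itgam: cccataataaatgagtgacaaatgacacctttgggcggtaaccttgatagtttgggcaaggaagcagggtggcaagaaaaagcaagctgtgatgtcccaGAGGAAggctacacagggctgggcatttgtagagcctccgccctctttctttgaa
Cd68: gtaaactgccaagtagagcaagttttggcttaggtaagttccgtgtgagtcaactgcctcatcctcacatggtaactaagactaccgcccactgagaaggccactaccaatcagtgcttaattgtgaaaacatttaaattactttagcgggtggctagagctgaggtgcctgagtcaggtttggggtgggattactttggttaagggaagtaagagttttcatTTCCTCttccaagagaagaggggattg

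The full windows of 300 bases reach from 250 before to 50 after each start in that table. Counting the strands together, 2 matches were found in each of Itgam, Csf1r and Cd68. No window was available for Aif1. At least 1 match was held by 27.6% of 33469 windows. All 3 genes with a window thus hold the letters, whatever the size of their difference between the lines, and a match describes the letters and not binding. The window of Csf1r lies inside the annotated gene for 277 of its 300 bases (146 for Itgam and 50 for Cd68) and is not printed.

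Aif1 encodes IBA1, a calcium- and actin-binding protein of the cytoplasm that is the usual stain for microglia. It measured 3.72, 3.64, 3.68, 3.62 and 3.48 log2 RPM in bHR replicates 1 to 5 and 3.95, 3.78, 3.87, 3.81 and 3.54 in bLR replicates 1 to 5. The first 4 bLR rats were above all bHR rats, while bLR replicate 5 lay below 4 of the 5 bHR rats. The means were 12.4 ± 0.76 RPM (SD, n = 5) in bHR and 13.9 ± 1.42 RPM in bLR. The log2 difference of -0.16 (SE 0.076, 95% interval -0.33 to 0.0029) did not pass (limma adjusted p = 0.34, exact permutation p = 0.087). Between 317 and 637 reads were counted per library. The SD of 0.091 log2 units in bHR was near the counting error of 0.066, and that of 0.15 in bLR was above 0.068.

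The low value in bLR replicate 5 weighed on Aif1. Without that library the difference was -0.23 (95% interval -0.36 to -0.089), and the adjusted p was 0.11, the lowest of the 21 other settings in limma. Aif1 passed in 0 of them.

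Cd68 encodes a glycoprotein of lysosomes and endosomes that macrophages make in large amounts when they phagocytose. Its values were -0.061, 0.62, -0.16, -0.33 and 0.66 log2 RPM in bHR replicates 1 to 5 and -0.11, 0.32, 0.11, -0.14 and -0.096 in bLR. In bHR 2 rats were high (replicates 2 and 5) and 3 were low, and all bLR rats lay between the extremes of bHR. The means were 1.15 ± 0.38 RPM (SD, n = 5) in bHR and 1.02 ± 0.15 RPM in bLR, a log2 difference of 0.13 (SE 0.22, 95% interval -0.34 to 0.60; limma adjusted p = 0.82, exact permutation p = 0.56). Only 25 to 54 reads were counted per library. Counting error was 0.22 log2 units in bHR and 0.25 in bLR, against an observed SD of 0.46 and 0.20. The interval holds the differences measured for Csf1r and Aif1, so these data cannot tell a difference of that size from none. It does not hold the -0.69 of Itgam.

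**Figure D2:**
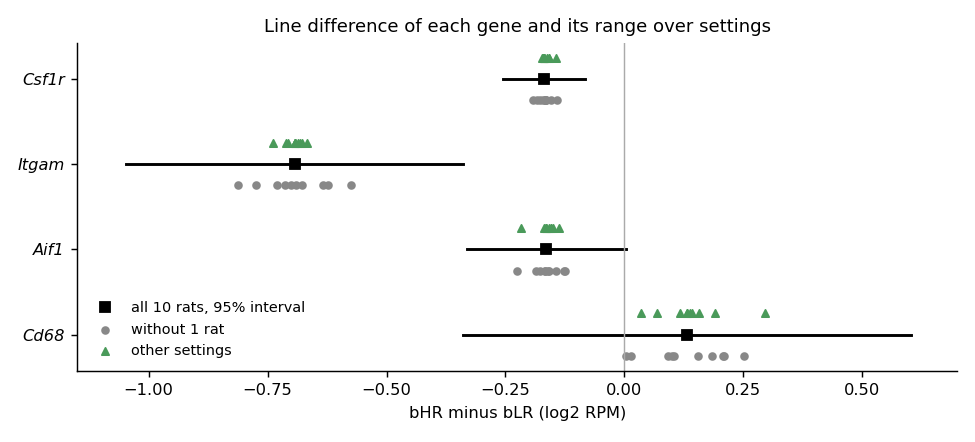
Difference between the lines (horizontal axis, bHR minus bLR, log2 RPM) for each gene. Squares and lines are the value over 10 rats and its 95% interval from limma, grey points leave out 1 rat each, and triangles are the other settings. Itgam lies at -0.69 and Csf1r at -0.17, and the intervals of Aif1 and Cd68 reach across 0.

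The 4 genes were then set against each other within each rat, since a ratio between them does not move where all change alike and does not depend on the scaling of the library. Reads were not scaled to gene length, so only the change of a ratio between lines can be read. The ratio of Aif1 to Csf1r was nearly the same in both lines, at a log2 value of -3.00 ± 0.11 (SD, n = 5) in bHR and -3.01 ± 0.11 in bLR. The difference of 0.0045 had an interval of -0.16 to 0.16 from the exact permutation test (p = 0.96). These data thus allow the Aif1 and Csf1r differences to be unequal by up to 0.16 log2 units either way.

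Ratios with Itgam differed more. Relative to Csf1r, Itgam was at -3.52 ± 0.35 (log2, SD, n = 5) in bHR and -3.00 ± 0.21 in bLR. The lines overlapped through bHR replicate 5, and the difference was -0.52 (interval -0.97 to -0.11; exact permutation p = 0.024, and 0.071 after Benjamini-Hochberg adjustment over the 6 ratios). Relative to Cd68, Itgam was at 2.96 ± 0.27 in bHR and 3.78 ± 0.25 in bLR without overlap, a difference of -0.82 (interval -1.19 to -0.44; exact permutation p = 0.0079, adjusted 0.048). This was the only one of the 6 ratios to pass, with the smallest p the design can give. Without any 1 of bHR replicates 1 to 4 or bLR replicates 1, 4 and 5 the adjusted p was 0.095. The p of an exact test moves in coarse steps with so few rats. The difference over all rats left out in turn was -0.93 to -0.73. The Aif1 to Itgam ratio differed by 0.53 (interval 0.00 to 1.04; exact permutation p = 0.063, adjusted 0.13).

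Ratios of the other genes to Cd68 did not pass. The Aif1 to Cd68 ratio was 0.30 log2 units lower in bHR, written as a difference of -0.30 (interval -0.94 to 0.30; exact permutation p = 0.32, adjusted 0.38). For Csf1r to Cd68 the difference was also -0.30 (interval -0.87 to 0.19; exact permutation p = 0.25, adjusted 0.38). Without bHR replicate 5, the ratio of Itgam to Csf1r differed by -0.63 and that of Aif1 to Itgam by 0.69, both with an adjusted p of 0.032 in the exact permutation test.

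**Figure D3:**
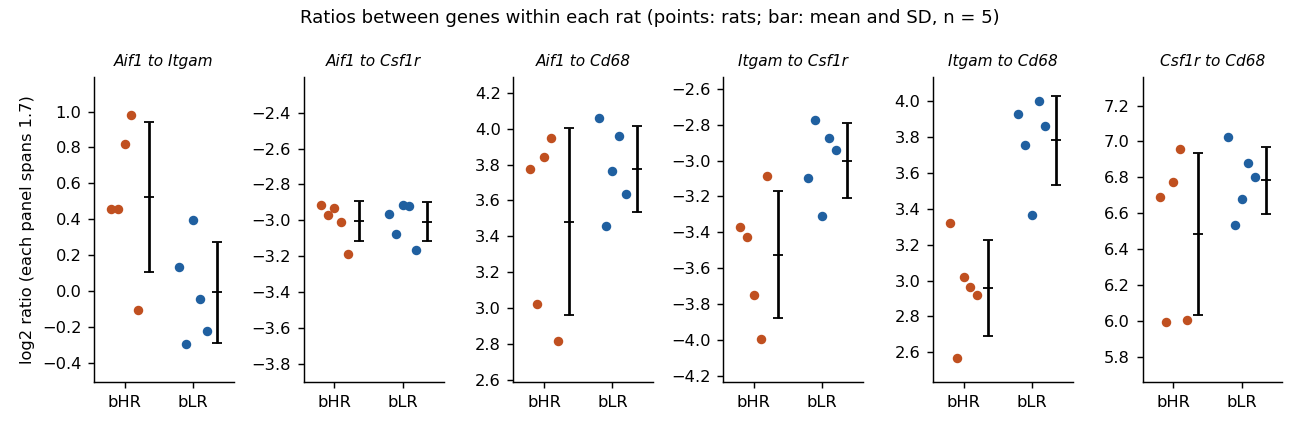
Log2 ratio of each pair of genes (vertical axis, equal span in all panels) in the 5 bHR and 5 bLR rats, with mean and SD. The Aif1 to Csf1r panel shows the lines at the same height, and the Itgam to Cd68 panel shows them apart, with the highest bHR rat at 3.32 and the lowest bLR rat at 3.37.

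A summary over the 4 genes was formed for each rat as the mean of the log2 levels, each taken relative to the gene's mean over the 10 rats. It was -0.10, 0.025, -0.24, -0.35 and 0.11 in bHR replicates 1 to 5 and 0.15, 0.27, 0.072, 0.077 and -0.011 in bLR replicates 1 to 5. The lines overlapped, since bHR replicates 2 and 5 lay above bLR replicate 5, and bHR replicate 5 also above bLR replicates 3 and 4. The mean was -0.11 ± 0.19 (SD, n = 5) in bHR and 0.11 ± 0.11 in bLR, a difference of -0.22 that is described without a test because the genes were chosen.

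Most of this difference came from Itgam. With Itgam left out the difference of the summary was -0.067, with Cd68 left out it was -0.34, and with Aif1 or Csf1r left out it was -0.24. All 4 genes were above their own mean in bLR replicates 2 and 3, and none was in bHR replicates 3 and 4. In the other 6 rats the genes were split.

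**Figure D4:**
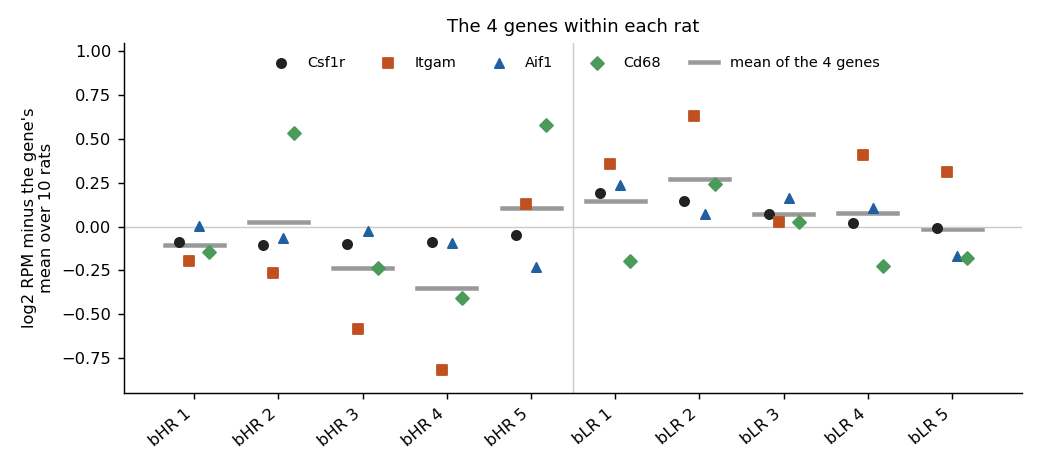
Level of each gene relative to its mean over 10 rats (vertical axis, log2 RPM) in every rat, with a grey bar for the mean of the 4 genes. Itgam lies farthest from its mean in bHR replicates 3 and 4 and bLR replicate 2, Csf1r stays within 0.2 of its mean, and in bHR replicate 5 Cd68 is high while Aif1 is low.

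Whether the genes varied together from rat to rat was examined on deviations from the line means, because the lines stood apart in Csf1r and a correlation pooled over them would repeat that difference. No pair passed over 6 pairs and 10 rats (exact permutation within lines, 14400 arrangements, smallest adjusted p = 0.43 for Pearson's r and 0.66 for Spearman's rho). The strongest was Itgam with Cd68 (r = 0.70, exact permutation p = 0.077; rho = 0.61, p = 0.13). It was r = 0.34 without the 2 rats farthest from the median of Itgam, and 0.53 to 0.83 without 1 rat at a time. Leaving out extreme values also narrows the range, so the lower r cannot show that the correlation rested on those rats. Aif1 and Csf1r had r = 0.49 (exact permutation p = 0.30; rho = 0.32, p = 0.44). That value was 0.038 without bLR replicate 5, and the sign was negative over the 5 bHR rats (-0.85) and positive over the 5 bLR rats (0.72), numbers too small for a test of their own. Within the 5 rats of a line Csf1r varied little, in bHR by no more than counting error, which limits what its correlations can show.

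The remaining pairs were Itgam with Csf1r (r = 0.29, exact permutation p = 0.32; rho = 0.36, p = 0.29), Csf1r with Cd68 (r = 0.24, p = 0.33; rho = 0.13, p = 0.66), Aif1 with Itgam (r = -0.27, p = 0.41; rho = -0.12, p = 0.76) and Aif1 with Cd68 (r = -0.25, p = 0.43; rho = -0.31, p = 0.37). Without the 2 rats farthest from the median of the first gene named, r was 0.27, 0.47, 0.024 and -0.18 for these pairs and 0.47 for Aif1 with Csf1r. In bHR replicate 5, Itgam, Csf1r and Cd68 were each at the highest level of their line and Aif1 at its lowest. The genes of the table whose deviations were most like those of the summary over the 4 genes were ENSRNOG00000014619 (r = 0.93) and ENSRNOG00000050519 (r = 0.92). The most opposite were ENSRNOG00000046594 (r = -0.96) and ENSRNOG00000020179 (r = -0.94). They were searched among 13793 genes over 10 rats, are given as a description, and had limma adjusted p between lines of 0.70, 0.90, 0.19 and 0.95.

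The last comparison asked whether any of the 4 genes varied with social interaction once the line was taken into account. With line and score fitted jointly in limma, none passed. The slopes, in log2 units per point of the score, were 0.0059 for Aif1 (SE 0.0074, limma adjusted p = 0.89), 0.0016 for Itgam (SE 0.016, adjusted p = 0.99), -0.0012 for Csf1r (SE 0.0039, adjusted p = 0.96) and -0.018 for Cd68 (SE 0.021, adjusted p = 0.88). Each was smaller than its standard error in this model. With the replicate number as a block, the Itgam slope was 0.042 (SE 0.015, limma adjusted p = 0.66) and the Cd68 slope 0.043 (SE 0.027, limma adjusted p = 0.92). Over all genes, in the fit of line and score without the block, 0 of 16643 (0.0%) passed and 7.11% had an unadjusted p under 0.05. Limma with voom weights also gave 0, and the fit with the block gave 1.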

How the data were processed

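Reads of 50 bases from the hippocampus of 10 rats were aligned with Subread (Rnor_6.0) and assigned to Ensembl genes (release 85) by featureCounts, per the labels' protocols. The authors dropped genes that did not reach 16 counts in 5 samples and deposited log2 values made with limma voom, 1 column per rat; R 3.2.2 is given per the submitters' processing notes. Whether counting used strand is not stated in these sources, so reads of overlapping or antisense genes cannot be told apart. Whole reads were recovered from 100% of the values within 0.01 reads. Libraries of a line differed by more than sampling noise (chi-square per gene of 6.10 to 24.3 between libraries other than bLR replicate 5, and 134 to 192 between it and the rest of its line). The rats are separate animals.

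The test between lines was fitted with limma 3.58.1 (R 4.3.3) to the authors' log2 values of all 16643 genes, with an intensity trend and Benjamini-Hochberg adjustment at 0.05. Ratios and correlations were tested by exact permutation in Python 3.11.15, with intervals from the shifts not rejected at 0.05. Intervals of differences are 95% limma intervals. RPM is 2 to the power of the deposited value. Correlations were planned over all rats together and are given as deviations from line means. Alternatives were no intensity trend, genes below a mean of 1 (log2) left out, other scalings (median shift, quantiles, total reads, TMM), a prior count of 2 reads, weights, a replicate block, the score as a covariate, and each rat left out. The code was tested on simulated data. The named genes were the 4 members, and the 2 genes most and the 2 least like their mean. The members and lists were chosen with earlier results of these data known. Planned lists of marker and pathway genes were not counted, because 0 identifiers matched the RefSeq table (GRCr8).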

Additional observations from a re-analysis of the deposited data

Results flagged for a closer look

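In bHR replicate 5 the log2 level of Csf1r was 6.67, with the nearest other bHR rat at 6.63, a gap of 0.714 times the range of the 5 bHR rats. It stood out because it lay far from the others of its line for a group of 5. Such values were looked for in 22 groups of 5 (each gene, their mean and the 6 ratios in each line), and 1 was found, where chance gives about 1 in 20 groups. The whole bHR range of Csf1r was near counting error.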

How the results depend on the processing

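The direction of the line difference held for Aif1, Itgam and Csf1r in all 21 settings and for Cd68 in all 20 (it has no value in the filter at a mean log2 value of 1). For Cd68 the difference was only 0.0025 without bHR replicate 5 and 0.014 without bHR replicate 2, and at most 0.30 (score as a covariate), so its sign was not firm. Itgam passed with voom weights (-0.74) and without bHR replicate 5, with -0.81 to -0.58 over the rats left out. Csf1r passed with library weights (-0.17, limma adjusted p = 0.041) and without bLR replicate 5, with -0.19 to -0.14. Over all genes, the 230 called became 152 without the intensity trend, 46 with the score as a covariate, 503 at an adjusted p under 0.10, and 108 to 216 without 1 rat (the lowest without bHR replicate 1, 2, 3 or 4 or bLR replicate 2 or 3, with 135, 109, 108, 115, 121 and 138). The shared replicate numbers are not said to pair animals. Over genes with a mean log2 value of at least 1, deviations of same-numbered rats correlated at -0.15 to 0.15, and 1 of 5 bHR rats was closest to its namesake. With the replicate block, the SE of the line difference went from 0.076 to 0.053 for Aif1 and from 0.16 to 0.13 for Itgam. It went from 0.22 to 0.19 for Cd68 and from 0.040 to 0.043 for Csf1r. Whether same-numbered rats belong together was not tested. In the fit with the replicate block 108 genes were called, 1 gene followed the score, the Itgam slope was 0.042 (limma adjusted p = 0.66) and the Cd68 slope 0.043, and the Itgam to Cd68 ratio difference of -0.82 did not pass, as 5 sign flips cannot reach the threshold. That ratio difference was -0.90 for medians (not passing) and -0.93 to -0.73 without 1 rat, where 7 of 10 did not pass. For Itgam to Csf1r it was -0.63 to -0.41 without 1 rat and for Aif1 to Itgam 0.41 to 0.69. The ratio of Aif1 to Csf1r changed sign around 0 (-0.0070 for medians, -0.035 to 0.051 without 1 rat), as did Aif1 to Cd68 for medians (0.012). None of the score slopes passed. The sign changed for Cd68 with the replicate block (from -0.018 to 0.043). It also changed for Itgam with voom weights (-0.00077) and without 1 rat (-0.0037 to 0.0094). The same held for Csf1r with total-read scaling (0.00060) and without 1 rat (-0.0044 to 0.0040), and for Aif1 without 1 rat (-0.00094 to 0.010). Without the trend 1 gene followed the score. Pooled over the lines, as planned, r was 0.76 for Itgam with Csf1r and 0.71 for Aif1 with Csf1r (permutation p = 0.012 and 0.024, both 0.071 adjusted over 6 pairs), and 0.26 for Itgam with Cd68. Correlations changed sign when pooled over the lines for Aif1 with Itgam (0.33) and Csf1r with Cd68 (-0.043), and without 1 rat for Aif1 with Itgam (-0.50 to 0.033) and Aif1 with Cd68 (-0.57 to 0.020). For settings with all rats the cause was not tested.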
